A study of Mus musculus with 6 samples.

Results

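The 44 genes described here encode the machinery that copies DNA: the factors that license replication origins, the replicative helicase, the DNA polymerases, the sliding clamp and its loader, and the proteins that supply nucleotides, join fragments and repack the new DNA. They were taken as a list of names by their role in replication, with earlier results of these data known. All 44 had a probe set of their own among the 19936 genes measured. Each is represented by the probe set that names only that gene; where several did, as for Pcna, Rpa3 and Tk1, the one with the highest mean was used.

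Levels were lower in heme-treated than in vehicle-treated cells at 6 h for 42 of the 44 genes (95.5%, against 63.5% of all genes kept). The median difference was -0.67 on the log2 scale, against -0.10 for all genes kept. By 24 h the median difference was -0.11 and by 72 h it was 0.03. The helicase subunit Mcm6 stood lowest, 3.12-fold lower with heme at 6 h. The vehicle array at 6 h carried the highest level of 39 of the 44 genes (88.6%, against 22.9% of all genes kept). Between 6 h and 72 h 7 genes were called lower over both treatments (15.9%, against 3.53%), led by the ribonucleotide reductase subunit Rrm2. Of these calls only that of Rrm2 held with either 24 h array left out. In those fits limma called 2 of the 44 genes and 412 of all 11516 genes kept, in either direction. No gene of the list passed the test of heme against vehicle over the 3 time points, where 1.72% of all genes kept did.

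Gene expression was measured on 6 single arrays, 1 for each of heme and vehicle at 6, 24 and 72 h. Every array, the controls included, came from bone marrow of Spic(igfp/igfp) mice, in which both copies of Spic, the gene of a macrophage transcription factor, carry the igfp allele; the sources used here do not say what that allele contains, and arrays of wild-type mice were not analysed here. The marrow was grown in 20 ng/ml GM-CSF, a cytokine that drives the outgrowth of macrophages, dendritic cells and granulocytes, and after 6 days received heme at 80 µM (the label has µm) or a vehicle of 0.15 M NaCl containing 10% NH4OH. The adherent cells were kept and the floating ones thrown away, so each array is a mixture of the cell types that stuck to the dish. The sources used here give no age or number of animals and do not say if any 2 arrays share a mouse or a culture. A p-value below therefore measures only the spread among these arrays, which may be technical. In tests of time as of heme, that spread also holds any difference between the treatments in their change over time.

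Array medians ran from 5.34 to 5.45 and pairwise correlations from 0.975 to 0.986; the heme array at 6 h stood highest in median (5.45) and lowest in SD (2.19). The treatment was visible in Hmox1, the heme-degrading enzyme heme oxygenase 1, which was higher with heme by 2.76, 2.74 and 2.27 at 6, 24 and 72 h. All 12 macrophage markers were kept by the level filter described below, and their mean level lay between 10.00 and 10.74 on every array. Of the dendritic cell markers 8 of 12 were kept, of the neutrophil markers 10 of 12, of the monocyte markers 4 of 4 measured, of the progenitor markers 3 of 9, of the erythroid markers 0 of 6 measured, of the mast cell and basophil markers 1 of 9, of the B cell markers 3 of 7 measured, of the T and NK cell markers 0 of 8 and of the stromal markers 6 of 10.

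Replication is prepared before S phase. The origin recognition complex, with Cdc6 and Cdt1, loads the ring of Mcm2 to Mcm7 onto DNA; geminin, the product of Gmnn, blocks Cdt1 so that an origin fires only once in a cycle. In S phase Cdc45 and the GINS complex join the ring to form the active helicase, primase and the polymerases copy the strands, and the PCNA clamp, loaded by the RFC complex, holds the polymerases on the template. RPA coats the single strands, Fen1 and Lig1 finish the lagging strand, and the CAF-1 complex places histones on the new DNA. Transcription of many of these genes rises late in G1, when E2F factors are released from the retinoblastoma protein, and falls in cells that leave the cycle. Bone marrow cells divide in GM-CSF cultures and mature macrophages largely do not, which is why this gene set is a common readout of proliferation in such cultures.

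The promoters are shown first. E2F site letters were not used to choose the list. Many genes of this role are transcribed through E2F, as described above, so a high share of matches was foreseeable. RefSeq promoter windows on GRCm38.p6, which run from 250 bases before to 50 bases after an annotated start, were found for 36 of the 44 genes and gave 41 windows. The letters TTCCCGC and TTGGCGC, both forms of the E2F site, were searched on both strands (GCGGGAA and GCGCCAA on the other). At least 1 match was present in 22 of the 41 windows (53.7%), against 6.81% of all 32851 windows and 11.4% of the 11723 windows of genes kept for the tests. Windows with 2 or more matches made up 19.5% for the list, 0.548% for all windows and 1.01% for genes kept. The CCAAT box (CCAAT, read as ATTGG on the other strand) was present in 56.1% of the list's windows, 37.4% of all windows and 37.0% for genes kept. The CHR element of mitotic promoters (TTTGAA, read as TTCAAA on the other strand) was present in 12.2% of the list's windows. This was the same share as for genes kept (12.2%), and 17.9% of all windows held it. Of the 30 windows of mitosis genes 73.3% held the CHR element and 16.7% held an E2F match. ATTGG and TTGGCGC share the letters TTGG, so 1 stretch can count for both motifs. A match says only that these letters are present. No window was matched for Gmnn, Mcm4, Gins1, Gins2, Gins4, Prim2, Pole and Rfc2.

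The upstream 250 bases are printed for Mcm6, the gene furthest below vehicle at 6 h, and for the 6 genes with a window that fell between 6 h and 72 h; E2F matches are in capitals and all else is in lower case. The Mcm6 promoter holds matches that begin 109 and 46 bases before the start, that of Mcm5 at 164 and 149 bases, Cdc6 at 138, Chaf1a at 47 and Prim1 at 15. No match was found in the windows of Rrm2 and Mcm10, though they hold 1 and 3 CCAAT boxes.
Mcm6, chr1:128359706-128359955, minus strand: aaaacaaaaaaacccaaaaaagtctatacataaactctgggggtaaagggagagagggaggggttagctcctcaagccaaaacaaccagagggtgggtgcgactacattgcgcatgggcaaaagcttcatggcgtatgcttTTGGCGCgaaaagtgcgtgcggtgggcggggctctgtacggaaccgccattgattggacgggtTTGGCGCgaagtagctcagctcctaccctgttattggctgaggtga
Mcm5, chr8:75109259-75109508, plus strand: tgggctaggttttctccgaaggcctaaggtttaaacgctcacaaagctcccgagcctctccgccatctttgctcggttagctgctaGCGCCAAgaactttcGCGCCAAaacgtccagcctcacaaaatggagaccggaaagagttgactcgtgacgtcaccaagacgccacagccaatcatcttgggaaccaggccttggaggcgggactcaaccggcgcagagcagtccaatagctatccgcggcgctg
Cdc6, chr11:98907901-98908150, plus strand: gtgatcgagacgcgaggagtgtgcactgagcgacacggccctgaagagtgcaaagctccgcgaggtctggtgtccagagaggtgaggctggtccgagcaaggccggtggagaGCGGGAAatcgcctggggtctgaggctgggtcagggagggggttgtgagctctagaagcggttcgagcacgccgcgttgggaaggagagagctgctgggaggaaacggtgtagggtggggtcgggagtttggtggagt
Chaf1a, chr17:56040166-56040415, plus strand: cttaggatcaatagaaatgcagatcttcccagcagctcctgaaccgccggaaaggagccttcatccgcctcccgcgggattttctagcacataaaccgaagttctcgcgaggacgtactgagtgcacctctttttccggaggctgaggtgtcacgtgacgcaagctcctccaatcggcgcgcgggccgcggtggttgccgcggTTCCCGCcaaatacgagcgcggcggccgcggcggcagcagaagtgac
Prim1, chr10:128014965-128015214, plus strand: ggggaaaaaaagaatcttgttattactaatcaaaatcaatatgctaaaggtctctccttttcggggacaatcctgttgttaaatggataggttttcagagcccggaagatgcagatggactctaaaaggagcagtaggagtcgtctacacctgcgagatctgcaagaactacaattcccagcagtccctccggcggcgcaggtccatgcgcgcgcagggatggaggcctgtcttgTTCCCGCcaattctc
Rrm2, chr12:24708004-24708253, plus strand: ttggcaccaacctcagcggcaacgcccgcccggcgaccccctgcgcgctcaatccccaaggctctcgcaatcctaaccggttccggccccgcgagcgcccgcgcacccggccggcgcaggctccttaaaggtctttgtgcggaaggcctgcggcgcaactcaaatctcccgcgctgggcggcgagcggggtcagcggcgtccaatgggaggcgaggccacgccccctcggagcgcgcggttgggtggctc
Mcm10, chr2:5012792-5013041, minus strand: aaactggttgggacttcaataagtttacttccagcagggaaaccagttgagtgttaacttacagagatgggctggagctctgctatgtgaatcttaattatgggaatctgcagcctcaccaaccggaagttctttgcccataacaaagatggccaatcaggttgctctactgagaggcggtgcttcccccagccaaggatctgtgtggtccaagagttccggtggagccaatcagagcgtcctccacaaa

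The 21 genes with an E2F match in a window had a median heme minus vehicle difference at 6 h of -0.68, and the 15 genes with a window and no match had -0.58. Their medians from 6 h to 72 h in vehicle were -0.69 and -0.83. Rrm2, with the lowest limma estimate for 72 h against 6 h over both treatments, has no match in this window, and Mcm6, with the lowest change in vehicle (-2.31), has 2.

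Levels below are log2 values as deposited, differences are heme minus vehicle at the same time, and a difference of -1 is 2-fold lower. Genes were kept for counts and tests where at least 1 array reached 5.37, the median of the whole table; this left 11516 genes and all 44 of the list. With 1 array per treatment and time there is no test at a single time point, and the number of arrays limits the precision.

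**Figure D1:**
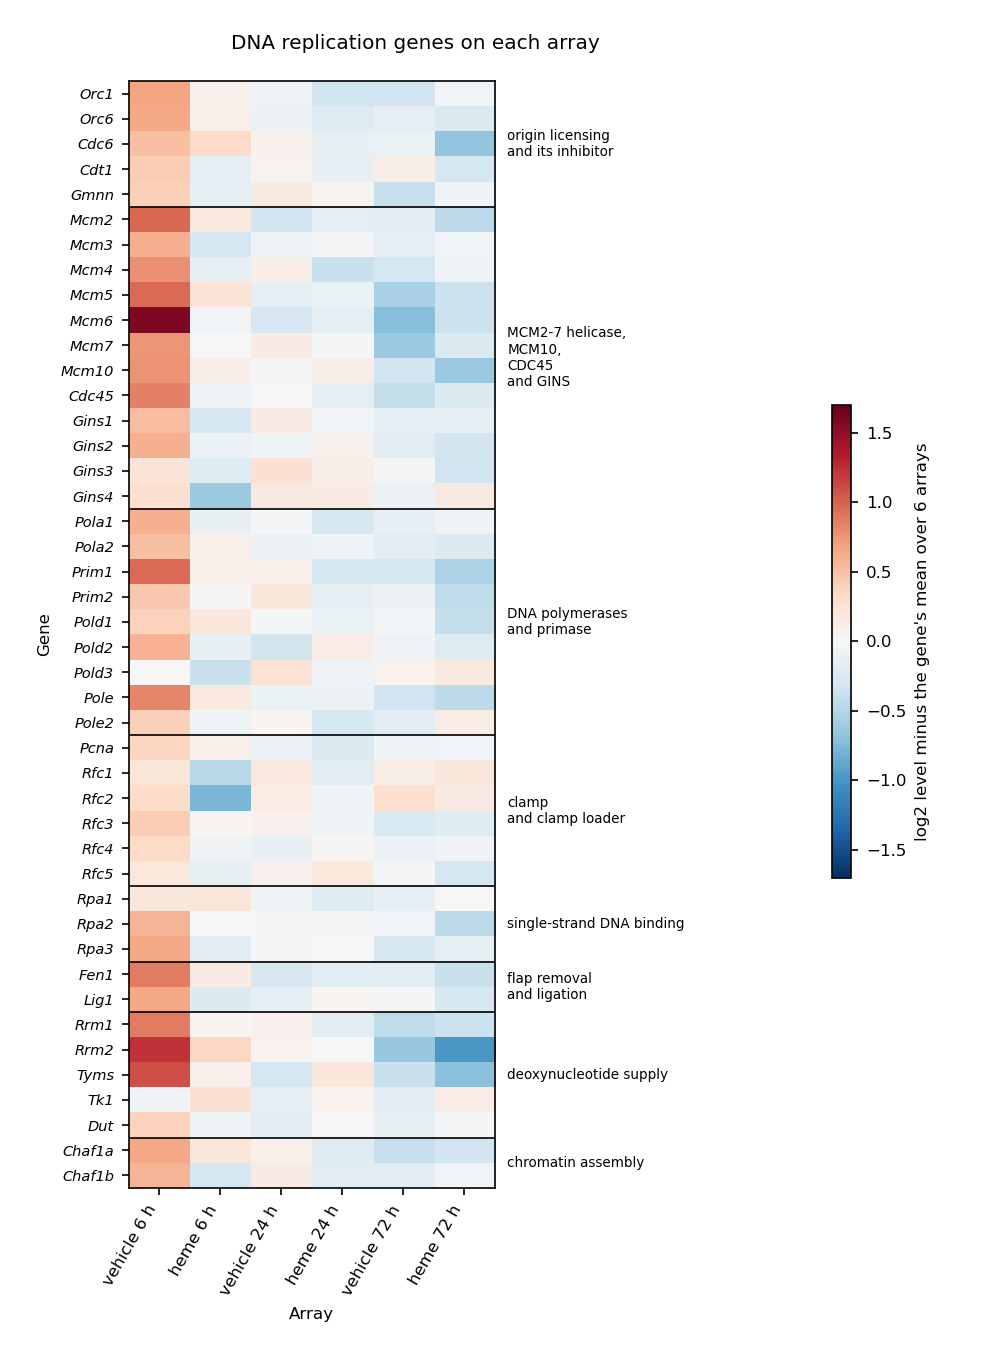
Log2 level of each of the 44 genes (rows, grouped by role) on each of the 6 arrays (columns), as the difference from the gene's own mean over the 6 arrays, red above and blue below. The vehicle 6 h column is the highest for 39 genes, and for 22.9% of all genes kept. The exceptions are Gins3, Pold3, Rfc5, Rpa1 and Tk1.

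The heme minus vehicle difference at 6 h was below 0 for 42 of the 44 genes (95.5%), where 63.5% of all genes kept were below 0. The quartiles of the list were -0.85 and -0.44, against -0.31 and 0.10 for all genes kept. At least 1.5-fold lower were 25 genes (56.8%), against 6.89% of all genes kept, and at least 2-fold lower were 3 (6.82%), against 0.669%. The 3 were Mcm6 (-1.64), Rfc2 (-1.09) and Tyms (-1.01), and the next, Cdc45, stood at -0.92. The count at 2-fold was 8 with each array centred on its median and 1 with an offset of 16 on the linear scale. In a mixed culture fewer cells of a type and less RNA per cell cannot be told apart. The heme array at 6 h also had the highest array median; with each array centred on its median, the list stood at -0.78 and all genes kept at -0.22.

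Among the licensing factors all 5 genes were lower with heme at 6 h, with differences from -0.60 to -0.18 and a median of -0.58. Orc6, the smallest subunit of the origin recognition complex, measured 7.34 with vehicle and 6.76 with heme at 6 h, 6.58 and 6.46 at 24 h, and 6.51 and 6.43 at 72 h. Cdt1, which loads the helicase, measured 6.71 with vehicle and 6.11 with heme at 6 h, 6.34 and 6.14 at 24 h, and 6.38 and 5.97 at 72 h; it was the only gene of the list whose 3 heme arrays all lay below its 3 vehicle arrays, which held for 5.85% of all genes kept. Cdc6, the partner of Cdt1 in loading, measured 5.43 with vehicle and 5.25 with heme at 6 h, 4.99 and 4.79 at 24 h, and 4.81 and 4.25 at 72 h. Its difference at 6 h, -0.18, was the smallest of the group, 5 of its 6 arrays lay below 5.37, and its lowest array was heme at 72 h. Orc1, the largest subunit of the origin recognition complex, and Gmnn differed by -0.58 and -0.56 at 6 h.

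All 12 helicase genes had a lower level with heme at 6 h, 11 of them at least 1.5-fold, with a median of -0.81. The 6 subunits of the MCM2-7 ring had a median of -0.86 and the 4 GINS genes -0.76. Mcm6, a ring subunit, measured 7.73 with vehicle and 6.09 with heme at 6 h, 5.86 and 5.98 at 24 h, and 5.42 and 5.78 at 72 h. Only the vehicle array at 6 h was high; the other 5 arrays lay within 0.67 of each other, so the 3.12-fold difference at 6 h was gone at 24 h. Mcm3, another ring subunit, measured 7.74 with vehicle and 6.84 with heme at 6 h, 7.03 and 7.09 at 24 h, and 6.95 and 7.08 at 72 h, and again vehicle at 6 h stood above 5 arrays that spanned 0.25. Mcm5, also of the ring, measured 6.64 with vehicle and 5.90 with heme at 6 h, 5.53 and 5.57 at 24 h, and 5.14 and 5.32 at 72 h, with a step down on each treatment from 6 h to 72 h. Mcm10, which helps to activate the ring, measured 6.19 with vehicle and 5.54 with heme at 6 h, 5.40 and 5.54 at 24 h, and 5.11 and 4.80 at 72 h.

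Gins4, a GINS subunit, showed another order. It measured 7.90 with vehicle and 6.99 with heme at 6 h, 7.76 and 7.75 at 24 h, and 7.50 and 7.77 at 72 h, so the heme array at 6 h was the low one and the other 5 arrays lay between 7.50 and 7.90. The remaining ring subunits Mcm2, Mcm4 and Mcm7 differed by -0.82, -0.91 and -0.75 at 6 h, and Cdc45, which joins the ring to the GINS complex, by -0.92. Gins1, Gins2 and Gins3 differed by -0.81, -0.70 and -0.44.

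All 9 polymerase and primase genes were lower with heme at 6 h, 4 of them at least 1.5-fold, with a median of -0.47. Prim1, the catalytic subunit of primase, measured 6.38 with vehicle and 5.51 with heme at 6 h, 5.52 and 5.13 at 24 h, and 5.12 and 4.89 at 72 h; within each time the heme array was the lower one, and within each treatment the level went down at each step to 72 h. Pole, the catalytic subunit of the leading-strand polymerase epsilon, measured 5.73 with vehicle and 5.07 with heme at 6 h, 4.78 and 4.79 at 24 h, and 4.56 and 4.45 at 72 h, and only vehicle at 6 h reached 5.37. Pold2, an accessory subunit of the lagging-strand polymerase delta, measured 7.48 with vehicle and 6.77 with heme at 6 h, 6.57 and 7.01 at 24 h, and 6.84 and 6.68 at 72 h, with heme below vehicle at 6 h and above it at 24 h. Pold3, another accessory subunit of polymerase delta, measured 7.40 with vehicle and 7.01 with heme at 6 h, 7.64 and 7.31 at 24 h, and 7.46 and 7.56 at 72 h; its highest array was vehicle at 24 h. Pola1 and Pola2, subunits of the priming polymerase alpha, differed by -0.73 and -0.42 at 6 h, Prim2, the large primase subunit, by -0.43, Pold1, the catalytic subunit of polymerase delta, by -0.20, and Pole2, an accessory subunit of polymerase epsilon, by -0.47.

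The clamp and its loader moved less, with a median of -0.40 at 6 h, and Rfc1 and Rfc2 passed 1.5-fold. Pcna, the sliding clamp, measured 10.60 with vehicle and 10.32 with heme at 6 h, 10.15 and 10.01 at 24 h, and 10.18 and 10.20 at 72 h; vehicle at 6 h was its highest array and heme at 24 h its lowest. Its other probe set also read -0.28 at 6 h. The 2 probe sets had nearly the same level on every array (10.15 and 10.01 at 24 h in both), so they may not be independent readings. Rfc2, a subunit of the clamp loader, measured 7.69 with vehicle and 6.61 with heme at 6 h, 7.51 and 7.31 at 24 h, and 7.65 and 7.52 at 72 h. As with Gins4, the heme array at 6 h was the low one, 2.12-fold under vehicle, and the other 5 arrays lay between 7.31 and 7.69. Rfc1, the large loader subunit, measured 8.26 with vehicle and 7.58 with heme at 6 h, 8.23 and 7.87 at 24 h, and 8.17 and 8.25 at 72 h, also with its lowest array at 6 h with heme. Rfc3, Rfc4 and Rfc5 differed by -0.39, -0.40 and -0.29.

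Of the RPA genes, which encode the complex on single-stranded DNA, Rpa1 was not lower with heme at 6 h. It measured 6.95 with vehicle and 6.97 with heme at 6 h, 6.69 and 6.55 at 24 h, and 6.61 and 6.77 at 72 h, and both 6 h arrays were its highest. Rpa3, the small subunit, measured 7.30 with vehicle and 6.46 with heme at 6 h, 6.62 and 6.66 at 24 h, and 6.37 and 6.49 at 72 h. Its other probe set differed by -0.74, -0.27 and -0.09 at 6, 24 and 72 h, so only the sign at 6 h was the same in both. Rpa2, the middle subunit, differed by -0.58 at 6 h. The lagging-strand finishers differed alike: Fen1, the flap nuclease, measured 7.14 with vehicle and 6.40 with heme at 6 h, 5.98 and 6.07 at 24 h, and 6.09 and 5.88 at 72 h, and Lig1, the ligase, measured 6.78 with vehicle and 5.89 with heme at 6 h, 5.95 and 6.15 at 24 h, and 6.09 and 5.84 at 72 h. For both, vehicle at 6 h was the highest of the 6 arrays and heme was slightly above vehicle at 24 h.

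Rrm2, the regulatory and rate-limiting subunit of ribonucleotide reductase, measured 7.25 with vehicle and 6.37 with heme at 6 h, 6.08 and 6.01 at 24 h, and 5.38 and 5.04 at 72 h, going down at each step in both treatments. Rrm1, its large subunit, measured 8.33 with vehicle and 7.49 with heme at 6 h, 7.53 and 7.26 at 24 h, and 7.02 and 7.09 at 72 h. Tyms, thymidylate synthase, measured 7.70 with vehicle and 6.69 with heme at 6 h, 6.31 and 6.80 at 24 h, and 6.23 and 5.89 at 72 h, so that heme was 2.01-fold lower at 6 h and 1.40-fold higher at 24 h.

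Tk1, thymidine kinase 1, was the only gene of the list higher with heme at all 3 times, by 0.33, 0.24 and 0.32; 12.8% of all genes kept were so. It measured 7.69 with vehicle and 8.01 with heme at 6 h, 7.59 and 7.83 at 24 h, and 7.57 and 7.88 at 72 h. Its other probe set read 6.31 and 6.16 at 6 h, 5.38 and 5.93 at 24 h, and 6.09 and 5.72 at 72 h (vehicle first), lower with heme at 6 h and 72 h, so the direction for Tk1 depends on the probe set. Dut, which clears dUTP, differed by -0.45 at 6 h. Of the CAF-1 genes, Chaf1a, the large subunit, measured 6.75 with vehicle and 6.31 with heme at 6 h, 6.18 and 5.88 at 24 h, and 5.70 and 5.78 at 72 h and Chaf1b, the middle subunit, 5.81 with vehicle and 4.95 with heme at 6 h, 5.38 and 5.04 at 24 h, and 5.04 and 5.19 at 72 h, and vehicle at 6 h was the highest array of both.

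**Figure D2:**
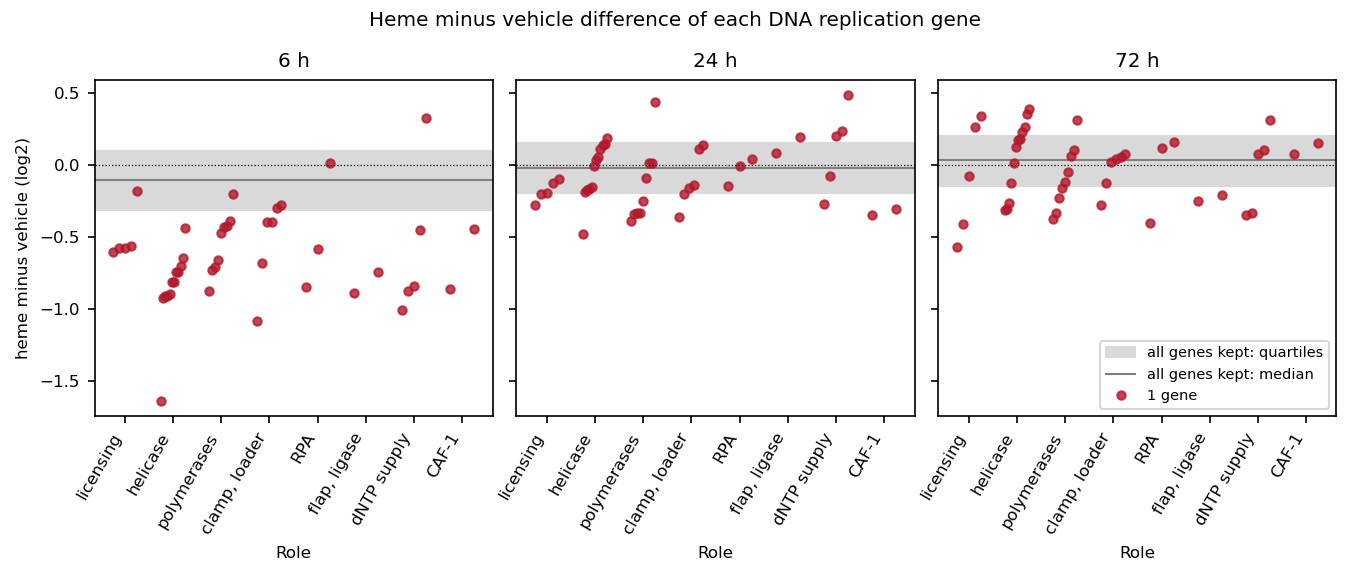
Heme minus vehicle difference (log2) of each gene at 6, 24 and 72 h, grouped by role; each point is 1 gene, the grey band holds the middle 50% of all genes kept and the grey line is their median. At 6 h 42 of 44 points lie below 0, against 63.5% of all genes kept, and Mcm6 is lowest at -1.64. At 24 h all 44 lie within 0.5 of 0, and the middle 50% of all genes kept lies between -0.20 and 0.16.

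At 24 h the treatments lay close together. All 44 genes differed by less than 0.5, 27 were lower with heme (61.4%, against 53.2% of all genes kept), and 0 were 2-fold lower, against 0.486%. The lowest was Mcm4 (-0.48) and the highest Tyms (0.49). All 5 licensing genes and both CAF-1 genes were lower with heme, with medians of -0.20 and -0.32, while both lagging-strand finishers were higher.

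At 72 h 20 of the 44 were lower with heme (45.5%, against 44.7% of all genes kept), and again 0 were 2-fold lower, against 0.608%. Cdc6 was lowest at -0.57, and it was the only gene beyond 0.5. Mcm7 was highest at 0.39, and 5 of the 6 MCM2-7 subunits were higher with heme. Lower with heme at all 3 times were 10 genes (22.7%, against 17.4% of all genes kept): Orc6, Cdc6, Cdt1, Gins3, Prim1, Prim2, Pold1, Rfc2, Rpa2 and Rrm2.

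The heme levels at 6 h were also set against those of vehicle at 24 h. The difference between the heme 6 h array and the vehicle 24 h array had a median of -0.01 over the 44 genes and -0.06 over all genes kept. It was within 0.5 for 39 of the 44, against 79.8% of all genes kept, and within 0.2 for 23, against 43.3%. The mean level of the list was 7.02 on vehicle and 6.39 on heme at 6 h, 6.42 and 6.35 at 24 h, and 6.23 and 6.20 at 72 h. The vehicle 6 h array held the highest level of 39 genes (88.6%), against 22.9% of all genes kept. For Orc1, Cdc6, Gins1 and Pole this was fixed by the level filter, which they passed through that array alone. The difference at 6 h and the changes over time in vehicle share that array. Leaving out the 6 h pair, the heme test below called 0 genes of the list and 521 of all 11516 genes kept. That fit holds only the 24 h and 72 h differences, so it says nothing of the difference at 6 h.

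Over the 3 time points, limma (treatment and time as terms, all 11516 genes) called 0 of the 44 genes for heme against vehicle at an adjusted p below 0.05, where 1.72% of all genes passed in either direction. At an unadjusted p below 0.05 limma gave 5, all lower with heme, where 5.65% of all genes kept were lower at that p: Prim1, Cdt1, Prim2, Rrm2 and Rfc2. Prim1 had the lowest adjusted p (limma, 0.232), with a mean difference of -0.50 ± 0.34 (SD, n = 3 time points) and heme lower at 3 of 3. Prim2 had the steadiest difference of the 5, -0.37 ± 0.06 (SD, n = 3 time points; limma, adjusted p = 0.304). The 3 time points stand in for replicates here, so a difference present at 6 h alone enters the test as spread; for Mcm6 the mean was -0.39 ± 1.09. The difference between the heme effects at 2 times was not tested, since each rests on 1 array a group.

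Between 6 h and 72 h, limma over both treatments called 7 of the 44 genes lower (15.9%, against 3.53% of all genes kept) and 0 higher. Rrm2 fell by 1.60 on the log2 scale (SE 0.21; limma, adjusted p = 0.00218), 3.64-fold in vehicle and 2.52-fold in heme. The others were Mcm5 (-1.04, SE 0.23, limma, adjusted p = 0.0263), Prim1 (-0.94, SE 0.19, 0.0207), Mcm10 (-0.91, SE 0.21, 0.0301), Pole (-0.89, SE 0.20, 0.0287), Cdc6 (-0.81, SE 0.18, 0.0248) and Chaf1a (-0.79, SE 0.18, 0.033). They come from licensing, the helicase, the polymerases, nucleotide supply and chromatin assembly. The clamp and loader (6 genes), RPA (3 genes) and lagging-strand (2 genes) groups gave 0, and are too small for this to be read as a difference. Fen1, of the lagging-strand group, stood at -0.78 (SE 0.21, limma, adjusted p = 0.064). Cdc6 and Pole passed the level filter through vehicle 6 h alone, which is also an array of this contrast. With the filter set on the mean over the arrays, 5 of 39 genes were called lower. In that setting 694 of all 10568 genes kept were called in either direction. Rrm1, Tyms and Mcm2 lay just outside (limma, adjusted p = 0.0543, 0.0545 and 0.0548), and 22 genes had an unadjusted p below 0.05, all lower, where 9.14% of all genes kept were lower at that p.

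The call depended on single arrays for most of these genes. Without vehicle 24 h or without heme 24 h, limma called 2 of the 44 genes (Rrm2 and Tyms) and 412 of all 11516 genes kept, in either direction. With all 6 arrays it called 7 and 759, so in those fits the list's share came close to that of all genes. Only Rrm2 of the 7 was still called. The other fits leave 1 array at 6 h or at 72 h, so only estimates are given. Without vehicle 6 h they were -1.27 for Rrm2, -0.91 for Cdc6 and -0.62 for Mcm5, but 0.72 for Gins4 and 0.90 for Rfc2. Without heme 6 h Rrm2 stood at -1.93 and Mcm5 at -1.47. Without vehicle 72 h these 2 genes stood at -1.54 and -0.78, and without heme 72 h at -1.66 and -1.31. The estimates of all 7 genes stayed negative in each fit. Levels below 5.37 were not shown to be above background: Cdc6 and Pole were there on 5 arrays each, Prim1 on 3, Mcm5 and Mcm10 on 2 and Rrm2 on 1, so the sizes of these falls are approximate.

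For the other intervals limma called 0 of the 44: between 6 h and 24 h, 13 had an unadjusted p below 0.05, all lower. Of all genes kept, 5.77% were lower at that p and 0.373% were called lower. Without heme 6 h the lowest estimate among these genes was that of Mcm6 (-1.93), and without vehicle 6 h the estimates were 0.84 for Gins4 and 0.72 for Rfc2. Between 24 h and 72 h, 2 genes had an unadjusted p below 0.05, Rrm2 and Mcm10, both lower, a share near the 4.19% of all genes kept that were lower at that p. Of all genes kept 0.339% were called lower. The estimate for Rrm2 was -0.84 with all 6 arrays, and the same with vehicle 6 h or heme 6 h left out. The contrasts of 24 h and of 72 h against 6 h share the 6 h arrays.

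**Figure D3:**
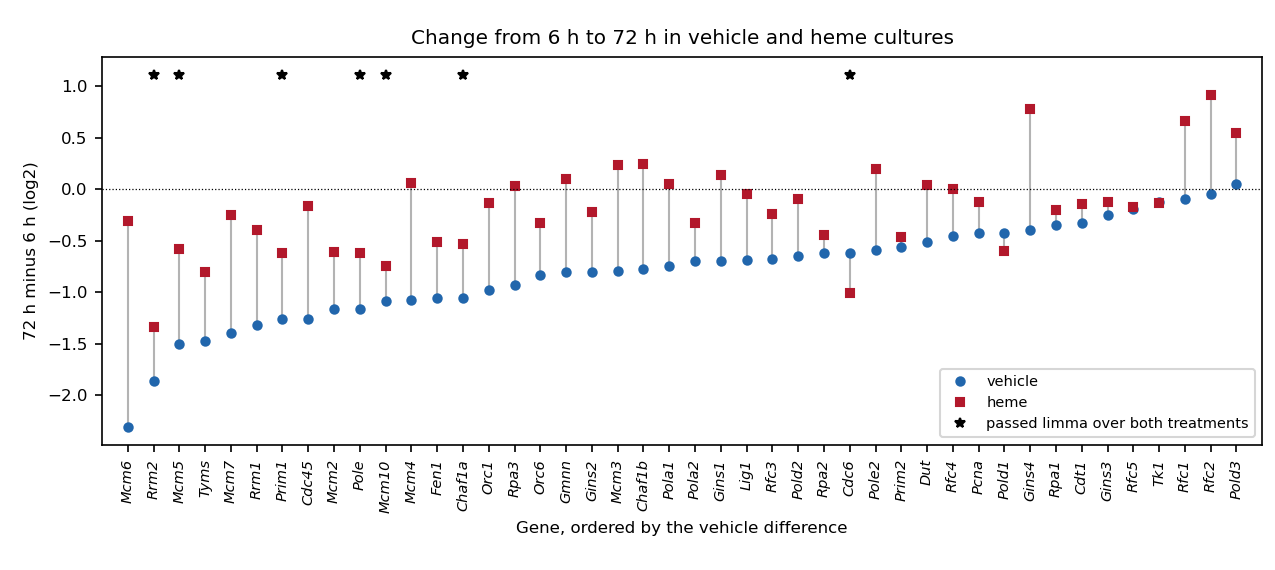
Change from 6 h to 72 h (log2) of each gene in vehicle (circles) and in heme (squares), 1 array minus 1 array, ordered by the vehicle change; stars mark the 7 genes that passed limma over both treatments. Vehicle runs from -2.31 (Mcm6) to 0.06 (Pold3) and heme from -1.34 (Rrm2) to 0.92 (Rfc2).

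Within vehicle alone, 43 of the 44 genes were lower at 72 h than at 6 h (57.7% of all genes kept were), with a median of -0.72 against -0.06 for all genes kept. At least 2-fold lower were 14 (31.8%, against 2.85% of all genes kept): Mcm2, Mcm4, Mcm5, Mcm6, Mcm7, Mcm10, Cdc45, Prim1, Pole, Fen1, Rrm1, Rrm2, Tyms and Chaf1a. Mcm6 was 4.95-fold lower. Within heme 30 were lower (44% of all genes kept were), with a median of -0.17 against 0.05, and 2 were at least 2-fold lower (4.55%, against 2.67%), Rrm2 and Cdc6. By 24 h the vehicle median was already -0.61, and in heme it was -0.10. Both 72 h arrays lay below both 6 h arrays for 24 genes (54.5%), against 23.2% of all genes kept. The treatments stood apart at 6 h (median difference -0.67) and close together at 72 h (0.03). The difference between their changes over time was not tested.

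Genes outside the list that belong to the same process had a median nearer 0 at 6 h. Of 52 measured genes of replication and S phase that are not on the list (other origin and fork proteins, DNA repair at forks, histone chaperones), the median was -0.31 at 6 h. Over the 43 of them kept it was -0.39, where all genes of the list were kept, and 0 of the 43 were 2-fold lower. Against 3.53% of all genes kept, limma called 10 of the 43 lower from 6 h to 72 h and 0 higher. The largest mean heme differences among them were those of Asf1b, a histone chaperone (-0.45 ± 0.47), Pclaf, a PCNA partner (-0.43 ± 0.23), Wdhd1, which links helicase and polymerase alpha (-0.40 ± 0.54), and Top2a, topoisomerase II (-0.40 ± 0.11; each SD, n = 3 time points). For heme over the 3 time points limma called 0 of the 43, against 1.72% of all genes kept. At an unadjusted p below 0.05 limma gave 5, all lower, where 5.65% of all genes kept were lower at that p. Top2a fell by 2.40 from 6 h to 72 h and Pclaf by 2.05 (limma, adjusted p = 1.37e-04 and 3.42e-04).

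The regulators that switch this program, E2F and RB proteins, cyclins of G1 and S and their inhibitors, had a median of -0.24 at 6 h over 35 measured genes. 1 of the 33 kept was at least 2-fold lower, Cdkn2c, an inhibitor of the G1 cyclin-dependent kinases, which measured 6.94 with vehicle and 5.38 with heme at 6 h, 6.44 and 6.19 at 24 h, and 6.08 and 6.00 at 72 h. From 6 h to 72 h limma called 11 of the 33 lower and 0 higher, where 3.53% of all genes kept were called lower. Among the 11 were Ccna2, the S-phase cyclin (-2.56, SE 0.18, limma, adjusted p = 1.37e-04), and Foxm1, a driver of mitotic genes (-1.19, SE 0.18, limma, adjusted p = 0.00394).

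More of the mitosis genes than of the replication genes were called over time. Of 32 mitosis genes measured, all kept, limma called 29 lower from 6 h to 72 h, against 7 of the 44 replication genes and 3.53% of all genes kept. The medians of the mitosis genes were -1.53 in vehicle and -1.16 in heme. At 6 h their median heme minus vehicle difference was -0.51, and it was -0.12 at 24 h and -0.06 at 72 h. For heme over the 3 time points limma called 2 of them lower, Cenpa, the centromere histone, and Kif23, a kinesin of cell division. The difference between the lists was not tested.

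**Figure D4:**
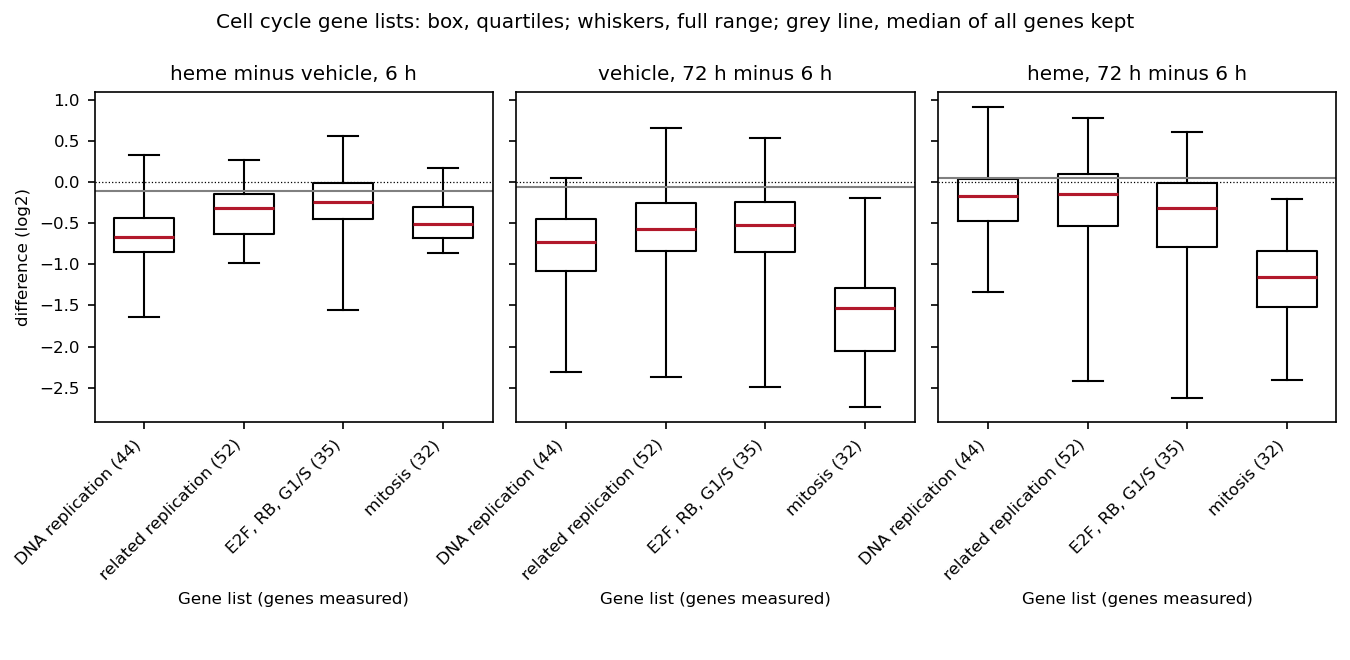
Differences (log2) of the DNA replication genes and of 3 other lists of measured genes: heme minus vehicle at 6 h, and 72 h minus 6 h in vehicle and in heme. Boxes span the quartiles, red lines are medians, whiskers reach the lowest and highest gene and the grey line is the median of all genes kept; the replication list has the lowest median at 6 h (-0.67), and the mitosis list has the lowest over time (-1.53 and -1.16).

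Markers of other cells moved over the same arrays. The mean level of the 12 neutrophil markers was 7.30 on vehicle and 7.51 on heme at 6 h, 6.14 and 7.11 at 24 h, and 5.85 and 6.04 at 72 h. Where 3.53% of all genes kept were called lower from 6 h to 72 h, limma called 6 of the 10 neutrophil markers kept lower and 1 higher. At 6 h their median heme minus vehicle difference was 0.11, and at 24 h 0.79, led by S100a9 (2.13). The mean of the 9 progenitor markers, which run from 4.97 to 5.41 over the arrays, was 5.41 and 5.39 at 6 h and 5.06 and 4.97 at 72 h, and limma called 1 of the 3 kept, Cd34, lower. The part of these cells in the changes of the replication genes was not tested. At 6 h the median heme minus vehicle difference was -0.05 for the 9 progenitor markers and 0.09 for the 3 of them kept, -0.24 for the macrophage markers and 0.23 for the dendritic cell markers. For the 4 monocyte markers it was -0.06, while their mean level was 8.71 on vehicle and 9.21 on heme, with Vcan higher by 2.35.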

How the data were processed

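The authors deposited 1 table of log2 expression values for 35556 probe sets on 6 arrays. RMA quantile normalization in the program ArrayStar is stated in the design text and RMA in the submitters' processing notes, with versions not given in the sources used here. RMA joins several probes into 1 value and compresses differences of dim probe sets.

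Probe sets naming 1 gene (21789) were used; 1621 named several and 12146 were not listed in the platform annotation supplied, and 21701 had a match in RefSeq's gene table (GRCm38.p6), by which 2 symbols were brought up to date. Of the resulting 19936 genes 1001 had several probe sets, and the brightest on average was taken. The 11516 genes with an array at or above the overall median (5.37) were kept.

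Two-sided tests were made with lmFit and eBayes of limma (version 3.58.1, R 4.3.3) from all 6 arrays in a model of treatment plus time, which had 2 residual and 7.17 prior degrees of freedom, and were adjusted by Benjamini-Hochberg over the 11516 genes. This step was tested on simulated data. With vehicle 6 h or heme 6 h left out, the fit had 1 residual and 46.9 prior degrees of freedom. Time points are the only matching in the labels, and an interaction of treatment and time leaves no residual degrees of freedom. Promoter windows were RefSeq's on GRCm38.p6, searched in Python 3.11.15.

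The members and the other gene lists were chosen with earlier results of these data known. Values on every array are given for genes 2-fold different between treatments at any time or past a test and for the 2 of each role with the highest mean level; of other lists, up to 4 with the largest mean difference, those 2-fold different, and Cd34, chosen after its values were seen. Alternatives were other normalizations, level filters, probe set rules, an offset of 16 on the linear scale, fold thresholds, variance models, terms and time points; leaving out each array was added after seeing the data.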

Additional observations from a re-analysis of the deposited data

Results flagged for a closer look

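In 7 genes an effect had opposite signs, each at least 0.3 in size, at 2 time points or in the 2 treatments. Each effect rests on 1 array a group, so the differences were not tested. For heme minus vehicle, the helicase subunit Mcm6 went from -1.64 at 6 h to 0.36 at 72 h, a difference of 2.00, and Mcm7 from -0.75 to 0.39, a difference of 1.14. Gmnn, the licensing inhibitor, went from -0.56 to 0.34, a difference of 0.90. Tyms, thymidylate synthase, went from -1.01 at 6 h to 0.49 at 24 h, a difference of 1.496, and then to -0.33 at 72 h, a difference of -0.82. Pold2, of polymerase delta, went from -0.71 at 6 h to 0.44 at 24 h, a difference of 1.147. Pole2, of polymerase epsilon, stood at -0.47 and -0.33 at 6 and 24 h and at 0.32 at 72 h, which are differences of 0.79 and 0.65. Gins4, of the GINS complex, changed from 6 h to 72 h by -0.39 in vehicle and by 0.79 in heme, a difference of 1.18. All but the Tyms and Pole2 differences between 24 h and 72 h involve the vehicle or heme array at 6 h.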

How the results depend on the processing

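The median heme minus vehicle difference of the replication genes stayed below 0 at 6 h under every alternative run. It was -0.78 with each array centred on its median, where all genes kept stood at -0.22, -0.78 over the 18 genes past an upper-quartile filter, and -0.54 with an offset of 16. The count of genes 2-fold lower at 6 h was 8 after centring, 1 with the offset, 25 at 1.5-fold and 0 at 4-fold. In vehicle the median change from 6 h to 72 h was -0.60 with the offset. The 7 genes lower at 72 h than at 6 h became 12 after centring, 3 with the upper-quartile filter, 4 with the offset and 1 without the treatment term. With single arrays left out, limma called 2 to 21 genes for 72 h against 6 h, 0 to 12 for 24 h against 6 h and 0 to 1 for 72 h against 24 h. The cause of these moves was not tested, except that the filter leaves fewer genes. The heme test called 0 genes in every alternative, with 1, 8 and 16 at an unadjusted p below 0.05 without the 6, 24 and 72 h pair. Of the 7 genes called at 72 h, 0 reversed in the alternatives run. Signal over background could not be judged below 5.37, where 10 of the 44 genes had at least 1 array.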
